A study of Mus musculus with 1457 samples.

Results

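Hemogenic endothelial cells labelled as lacking both Gfi1 and Gfi1b were set against heterozygous cells caught in the endothelial-to-hematopoietic transition (EHT), both taken at E10.5 from the AGM (aorta-gonad-mesonephros) of mouse embryos. The groups were set by sort and genotype label, and the globins were the only measured genes used to choose cells. Cells with under 100000 reads, or with 1% or more of their reads on the 7 globin genes, were left out. This kept 37 of the 42 knockout cells and 41 of the 41 heterozygous cells, so that 78 of the 1457 single cells of the series entered the comparison. The question was which blood genes were read, and which endothelial genes were still read, in knockout cells held in the hemogenic endothelium gate.

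The knockout cells, called KO HE here, carried Gfi1:Tomato/Tomato and Gfi1b:GFP/GFP and came from a gate that required CDH5 and the GFI1 reporter and excluded TER119, CD41, CD45, KIT and the GFI1b reporter. The heterozygous cells, called het EHT, carried Gfi1:Tomato/WT and Gfi1b:GFP/WT, and their gate required KIT and CD41 on top of CDH5 and the GFI1 reporter while excluding TER119, CD45 and the GFI1b reporter. All animals were of the ICR strain, and reporter alleles were present in every cell, with no cell free of them. Other heterozygous E10.5 sorts of the line serve only to place levels. They are het HE (79 cells kept, the hemogenic gate), het Endo (73 cells, negative for both reporters) and het IAHC (42 cells, from intra-aortic clusters, positive for both). KO HE and het EHT cells thus differed in genotype and in the KIT and CD41 gates at once, and the contributions of genotype and gate cannot be told apart.

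During EHT, a few endothelial cells in the floor of the dorsal aorta lose endothelial features, round up and become the first blood stem and progenitor cells. RUNX1 starts this step, and GFI1 and GFI1B, zinc-finger repressors that recruit the histone demethylase LSD1 (Kdm1a) through their SNAG domain, are known to silence endothelial genes downstream of it. Both proteins bind DNA with a core of AATC.

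Each cell was sorted into its own well and its polyA RNA was sequenced by Smart-seq2. KO HE cells had 252891 to 773904 gene-assigned reads (median 410549), and het EHT cells had 319003 to 716358 (median 509725). The median cell had reads of 6957 genes in KO HE and of 7682 genes in het EHT. No label named an embryo or litter, so each sort counted as 1 sample, there was no replicate check, and no test of a difference was possible. Levels are CPM, the reads of a gene per 1000000 reads, summed over a group's cells. Intervals in brackets are exact Poisson for levels and exact Clopper-Pearson for shares of cells, at 95%, and cover counting error only. Because Smart-seq2 gives no molecular identifiers, copies made by PCR count as reads. A gene was measured if it reached 10 CPM in the higher group and is called higher or lower in KO HE if the sums were at least 2-fold apart. Of 9655 measured genes, 1014 (10.502%) were higher and 860 (8.907%) were lower in KO HE, and the median log2 ratio was -0.08.

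The 5 KO HE cells left out were not like the rest. Both cells under the read floor had almost no reads, with 63 and 65, and 1 of them also passed the globin limit. The 4 cells over the globin limit had 3.08% to 48.1% of reads on globin genes, 0 reads of Cav1 and 1 read of Cldn5. The 3.08% belongs to the cell with almost no reads, whose lack of any gene says little. Together the 4 cells had 905 CPM of Alas2, the erythroid heme synthesis enzyme, and 753 CPM of Gfi1b.

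The promoters of Gfi1b, a target gene of the knockout, and of Cav1, the endothelial list gene furthest apart between the groups, are shown because GFI1 and GFI1B bind AATC. Each is the 250 bases before a RefSeq start (GRCm38.p6), for Cav1 the first of 2 starts in table order, written along the gene's strand, with AATC on either strand (read as GATT on the other) in capitals.
Gfi1b, chr2:28621983-28622232, minus strand: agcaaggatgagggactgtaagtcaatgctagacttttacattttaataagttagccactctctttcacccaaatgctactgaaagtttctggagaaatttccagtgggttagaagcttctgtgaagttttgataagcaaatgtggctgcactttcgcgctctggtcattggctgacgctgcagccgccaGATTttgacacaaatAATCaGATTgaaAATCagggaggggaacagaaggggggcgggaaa
Cav1, chr6:17306085-17306334, plus strand: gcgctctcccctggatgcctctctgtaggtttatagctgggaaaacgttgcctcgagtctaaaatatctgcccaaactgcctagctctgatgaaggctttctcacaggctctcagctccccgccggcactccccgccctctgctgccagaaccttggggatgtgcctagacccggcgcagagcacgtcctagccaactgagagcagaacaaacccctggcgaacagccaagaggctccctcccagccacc
The Gfi1b window held 4 matches to AATC, of which 1 lay within the longer AAATCA, and each of the 2 Cav1 windows held 0 matches to either. Of 27025 promoter windows of this length, 1 for each gene, 69.8% held AATC and 12.7% held AAATCA on either strand, so a match to the short core is common.

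Reads of the targeted genes did not check the knockout labels. Gfi1 had 241.5 CPM [233.9, 249.4] in KO HE and 136.5 CPM [131.5, 141.6] in het EHT, with reads in 35 of 37 and in 37 of 41 cells. The lowest, median and highest KO HE cells had 0, 212.9 and 584.5 CPM of Gfi1, and the het EHT cells 0, 116.4 and 540.2 CPM. The counts are per gene and do not show which exons were read, so transcripts from a reporter allele that keeps part of the gene cannot be told from intact ones. Gfi1b had 8 reads in 2 of 37 KO HE cells (0.510 CPM) and 1031 reads in 18 of 41 het EHT cells (50.1 CPM), which was 98.1-fold lower in KO HE. That direction depends on the cells left out. The log2 ratio was -6.62, and it was 0.87 once the globin-rich KO cells, 3 of which had Gfi1b reads, were counted. In het HE cells, which share the hemogenic gate, Gfi1b had 9.06 CPM, with reads in 8 of 79 cells.

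Messages of the gate proteins followed the gates in part. Cdh5, the endothelial cadherin required by both gates, had 448 CPM in KO HE and 398 CPM in het EHT, and every KO HE cell had reads of it. Kit, the stem cell factor receptor that the hemogenic gate excludes, had 291 CPM in KO HE, with reads in 33 of 37 cells, and 607 CPM in het EHT, with reads in 41 of 41 cells. The lowest, median and highest KO HE cells had 0, 237.04 and 788 CPM of Kit, against 1.64, 553 and 1532 CPM in het EHT, so the groups overlapped widely. The 2.09-fold difference fell under 2-fold when cells were thinned to equal depth or scaled by another method. Itga2b (CD41) had 27.3 CPM in KO HE and 38.4 CPM in het EHT. Ptprc (CD45) was read in 2 of 37 KO HE cells, which held all of its 13.3 CPM, and in 8 of 41 het EHT cells (27.7 CPM).

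Among blood genes, Runx1, Gata2 and Kit were still read in most KO HE cells, while Ikzf1, Mpo and Plek were read in 2 KO HE cells at most. Kit reads were not particular to blood sorts. Of 73 het Endo cells, 18 had reads of Kit along with Cav1 and 19 had reads of Kit without Cav1. Over the lists of blood transcription factors, blood surface proteins and leukocyte signalling proteins together, 39 of 74 measured members (52.7%) were lower in KO HE and 4 (5.41%) were higher, beside 8.907% and 10.502% of all measured genes. Their median log2 ratio was -1.05. A gene that reaches 10 CPM only where it is high had to differ, so these counts describe the measured members and no more. With no CPM minimum, 49 of 92 members were lower and 6 were higher, beside 2880 and 2707 of all 16317 genes. The 4 higher members were Gata3, Procr, Cd93 and Rasgrp3, of which Cd93 and Rasgrp3 were named after their values were seen.

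Of 26 measured blood transcription factors, 10 were lower and 1 was higher in KO HE, with a median log2 ratio of -0.74. Runx1, which starts the transition, had 106.2 CPM [101.1, 111.4] in KO HE and 233.7 CPM [227.1, 240.4] in het EHT, 2.20-fold lower. Its lowest, median and highest cells were at 0, 76.3 and 462 CPM in KO HE, against 18.4, 202.9 and 858 CPM in het EHT. Reads of Runx1 were found in 83.8% of KO HE cells and in 100% of het EHT cells, beside 0 of 73 het Endo cells, which allows a share there of up to 4.11%. Most KO HE cells had therefore Runx1 reads that the endothelial sort lacked.

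Spi1, which encodes PU.1, the master factor of myeloid and lymphoid cells, had 54.3 CPM [50.7, 58.1] in KO HE and 244.7 CPM [237.978, 251.5] in het EHT, 4.50-fold lower. It was read in 51.4% of KO HE cells [34.4, 68.1] and in 87.8% of het EHT cells [73.8, 95.9], against 1.37% of het Endo cells. Thinned to 100000 reads per cell, these shares were 51.4%, 85.4% and 1.37%. KO HE cells ranged over 0, 6.50 and 490 CPM of Spi1 (lowest, median, highest) and het EHT cells over 0, 239.3 and 630 CPM. Of the KO HE cells, 18 had no Spi1 read, and the highest lay below the highest het EHT cell.

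The 3 largest drops among the factors were in Ikzf1, Nfe2 and Myb. Ikzf1 (Ikaros, a lymphoid and stem cell factor) was read in 1 of 37 KO HE cells and in 29 of 41 het EHT cells, at 1.91 and 111.7 CPM, 58.4-fold lower. Nfe2, a megakaryocyte and erythroid factor, had 8.48 CPM in KO HE and 163.1 CPM in het EHT, with reads in 8 of 37 and 37 of 41 cells. Myb, needed for definitive blood stem cells, had 17.98 CPM in KO HE and 170.7 CPM in het EHT, with reads in 11 of 37 and 38 of 41 cells. Meis1, a homeobox cofactor of stem cells, and Hlf, a stem cell factor, were 2.32-fold and 3.15-fold lower. Hlf was at 20.7 CPM in KO HE and 65.1 CPM in het EHT.

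Other blood factors were at like levels in both groups. Gata2, required for EHT itself, had 130.97 CPM [125.4, 136.8] in KO HE and 125.7 CPM [120.9, 130.6] in het EHT, and was read in 91.9% and 95.1% of cells. Fli1, an ETS factor of endothelium and blood, had log2 ratio 0.23, Hoxa9 had -0.25, and Ldb1 had -0.22. Mecom and Hhex, both also read in endothelium, had log2 ratios of 0.77 and 0.86. Gata3 was the 1 higher member, with 97.2 CPM in KO HE and 14.3 CPM in het EHT, 6.81-fold higher, and was read in 34 of 37 and 18 of 41 cells. Het HE cells had 97.1 CPM of it.

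**Figure D1:**
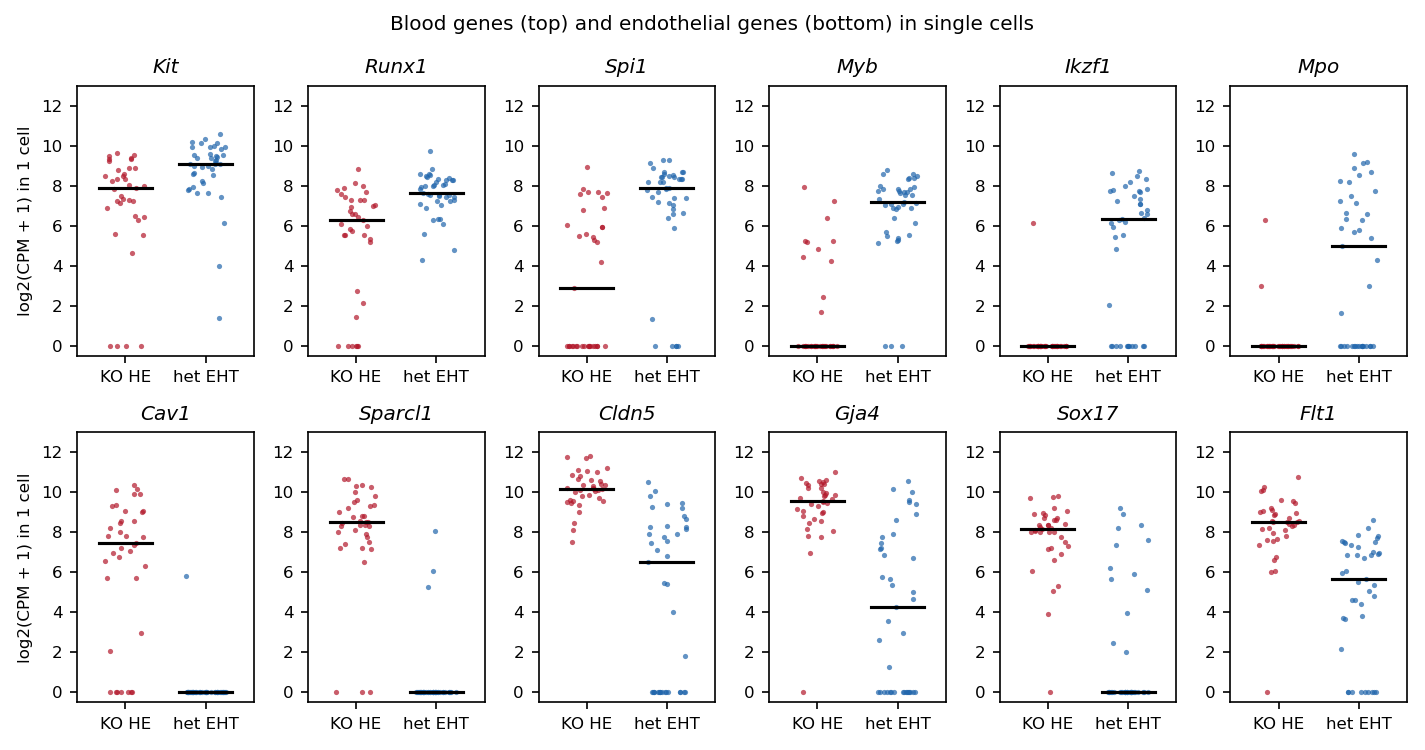
Level of 12 genes in single cells, as log2(CPM + 1) on the vertical axis, with KO HE cells (red, 37) left of het EHT cells (blue, 41) and a black bar at each group's median. Kit and Runx1 overlap between the groups, the median KO HE cell has 0 CPM of Myb, Ikzf1 and Mpo, and the median het EHT cell has 0 CPM of Cav1, Sparcl1 and Sox17.

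Of 19 measured blood surface proteins, 12 were lower and 2 were higher in KO HE, with a median log2 ratio of -1.62. Cd27, a receptor of early lymphoid and stem cells, had 0.957 CPM in KO HE and 49.7 CPM in het EHT. Flt3, the receptor of lymphoid-primed progenitors, had 2.42 CPM in KO HE and 18.1 CPM in het EHT. Csf2rb, the shared chain of the IL-3 and GM-CSF receptors, had 0 reads in KO HE and 23.3 CPM in het EHT, at least 121.8-fold lower against a floor of 3 reads summed over the group. The 4 globin-rich cells held 758 reads of Csf2rb, and counting them turned its log2 ratio to 0.87.

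Some surface genes were still read in many KO HE cells, at lower, like or higher levels than in het EHT. Adgrg1 (GPR56), a marker of emerging stem cells, was 3.39-fold lower, with 188.8 CPM in KO HE and 641 CPM in het EHT, yet it was read in 86.5% of KO HE cells against 10.96% of het Endo cells. Procr, the endothelial protein C receptor, was 3.18-fold higher, with 612 CPM in KO HE and 192.8 CPM in het EHT. Cd44, an adhesion receptor, had 196.3 CPM in KO HE and 206.1 CPM in het EHT.

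Of 29 measured leukocyte signalling genes, 17 were lower and 1 was higher in KO HE, with a median log2 ratio of -1.27. Plek (pleckstrin, a kinase substrate of platelets and leukocytes), Sla, Btk and Cytip, which act in antigen and cytokine receptor signalling or adhesion, had 0 reads in all 37 KO HE cells, against 36.4, 35.6, 26.3 and 10.97 CPM in het EHT. For Plek this was at least 190.1-fold lower, and 0 of 37 cells allows a share of up to 8.11%. Other members were much closer. Coro1a, an actin regulator of leukocytes, had 168.9 CPM in KO HE and 297 CPM in het EHT, and was read in 70.3% of KO HE cells against 5.48% of het Endo cells. Laptm5, Lcp2, Gmfg and Lcp1 had log2 ratios between -0.36 and 0.24.

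Granule and myeloid genes had the lowest median ratio of the lists described here. Of 26 granulocyte and macrophage genes, 9 were measured. Of these, 7 were lower and 0 were higher in KO HE, beside 8.907% and 10.502% of all measured genes, with a median log2 ratio of -1.90. A gene that reaches 10 CPM only in het EHT had to be lower in KO HE, so this median and its rank describe the measured members only. Prtn3 (proteinase 3) had 0 reads in KO HE and was read in 24 of 41 het EHT cells (63.6 CPM), at least 333-fold lower. Mpo (myeloperoxidase) was read in 2 of 37 KO HE cells (2.30 CPM) and in 24 of 41 het EHT cells (123.7 CPM). Fcer1g, a signalling chain of Fc receptors, was 21.7-fold lower, and Lyz2 (lysozyme) 3.72-fold lower. Among 8 measured megakaryocyte genes, 2 were lower, Gp1ba among them, and 0 were higher, while Itga2b, Itgb3 and the thrombin receptor F2r were within 2-fold. Epor and Tfrc were the 2 lower of 3 measured erythroid genes. Both fell under 2-fold with no cell left out, and the globin limit removed cells from KO HE only, so their ratios are a description.

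Endothelial genes stood the other way. The 6 lists are of pan-endothelial, arterial, venous, caveolar, junction and matrix genes. Over these lists together, 62 of the measured members (59.05%) were higher in KO HE and 3 (2.86%) were lower. Of all measured genes, 10.502% were higher and 8.907% were lower. The median log2 ratio of the members was 1.22. A gene that reaches 10 CPM only where it is high had to differ, so these counts describe the measured members and no more. The same shares of all genes and the same limit apply to each endothelial list below. With no CPM minimum, 64 members were higher and 7 were lower, beside 2707 and 2880 of all 16317 genes. The 3 lower members were Eln and Fbln2, elastic fibre proteins, and Amotl2, a junction scaffold named after its values were seen. The summed level of all members of these lists was 30427 CPM in KO HE and 14690 CPM in het EHT.

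**Figure D2:**
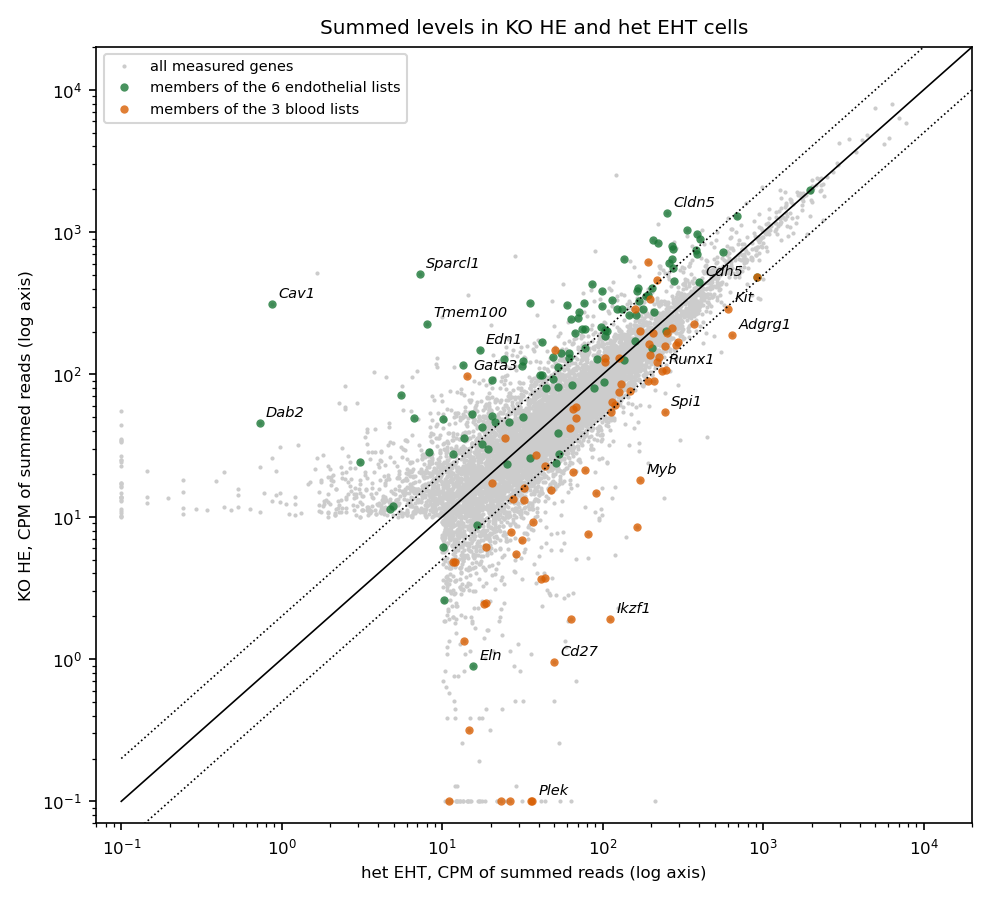
Summed CPM of each measured gene, with KO HE on the vertical and het EHT on the horizontal log axis, members of the 6 endothelial lists in green and of the 3 blood lists in orange. The solid line marks equal levels, dotted lines a 2-fold difference, and values below the lowest tick are drawn at it. Cav1, Sparcl1, Dab2 and Tmem100 lie far above the lines, and Plek, Ikzf1 and Cd27 far below.

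All 30 pan-endothelial genes were measured, and 17 were higher in KO HE and 0 were lower, with a median log2 ratio of 1.12. Cldn5, the claudin of endothelial tight junctions, had 1353 CPM [1335, 1372] in KO HE and 251.1 CPM [244.3, 258.036] in het EHT, 5.39-fold higher. The lowest, median and highest KO HE cells had 185.9, 1166 and 3610 CPM of Cldn5, against 0, 89.4 and 1456 CPM in het EHT. It was read in all 37 KO HE cells and in 25 of 41 het EHT cells, and het IAHC cells had reads in 35.7%. Flt1, a VEGF receptor, was 5.03-fold higher, with 434 CPM in KO HE and 86.3 CPM in het EHT.

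Robo4, a guidance receptor that stabilises vessels, was 4.51-fold higher, and Nos3 (endothelial nitric oxide synthase) 3.68-fold higher. Pecam1 (CD31) had 604 CPM in KO HE and 257.6 CPM in het EHT. Kdr, the main VEGF receptor, had 208.3 CPM in KO HE and 77.6 CPM in het EHT. Pecam1 was read in 37 of 37 KO HE and in 40 of 41 het EHT cells, and Kdr in 33 and in 32. Robo4 was read in 31 of 37 KO HE cells and in 11 of 41 het EHT cells, and Nos3 in 37 and in 25. Cdh5, Tek, Tie1 and Eng were within 2-fold, with log2 ratios of 0.17, 0.68, 0.69 and -0.31. Cd34, read in endothelium and blood stem cells alike, had a log2 ratio of -0.93.

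Arterial genes had the highest share of members called among these lists. Of 21 measured, 18 were higher in KO HE and 0 were lower, with a median log2 ratio of 1.83. Sox17, an arterial factor of the hemogenic aorta, had 307 CPM in KO HE and 60.1 CPM in het EHT, 5.11-fold higher. Its lowest, median and highest cells were at 0, 286 and 897 CPM in KO HE, against 0, 0 and 594 CPM in het EHT. It was read in 36 of 37 KO HE cells and in 13 of 41 het EHT cells, beside 7.14% of het IAHC cells.

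Gja4 and Gja5, connexins of arterial gap junctions, were 4.25-fold and 4.14-fold higher, with 875 and 317 CPM in KO HE and 205.7 and 76.4 CPM in het EHT. Tmem100, a BMP-induced arterial membrane protein, was 28.4-fold higher, with 227.2 CPM in KO HE and 8.01 CPM in het EHT. Edn1, the vasoconstrictor endothelin-1, was 8.62-fold higher and was read in 27 of 37 KO HE cells and in 5 of 41 het EHT cells. The Notch ligands Dll4 and Jag1 were 2.91-fold and 5.26-fold higher, and the receptors Notch1 and Notch4 2.33-fold and 3.88-fold higher. Over the whole Notch list, 9 of 18 measured members were higher and 2 were lower, beside 10.502% and 8.907% of all measured genes. The 2 lower genes were Maml3, a coactivator named after its values were seen, and Rfng, which adds sugars to Notch receptors. Rbpj, the DNA-binding partner of Notch, had a log2 ratio of -0.48.

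Venous and lymphatic genes were few, with 6 of 14 measured, of which 4 were higher and 0 were lower. Stab1, a scavenger receptor, had 320.0 CPM in KO HE, with reads in every cell, and 35.4 CPM in het EHT, with reads in 17 of 41 cells. Dab2, an endocytic adaptor, had 45.2 CPM in KO HE and 0.728 CPM in het EHT. Nrp2 and Flt4 were the other higher members.

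Caveolar genes held the widest difference. Cav1, the coat protein that forms caveolae, had 312 CPM [304, 321] in KO HE and 0.874 CPM [0.518, 1.38] in het EHT, 357-fold higher. The lowest, median and highest KO HE cells had 0, 175.5 and 1322 CPM of Cav1. Only 1 of 41 het EHT cells had reads of it, at 55.3 CPM, against 30 of 37 KO HE cells. Its partner Cav2 was 12.99-fold higher, and Cavin2 7.35-fold higher. Cav1 was above the levels in het HE (67.5 CPM) and het Endo (111.4 CPM), and het IAHC had 0 reads. Of 10 measured members, 5 were higher in KO HE and 0 were lower, and Pacsin2, which bends membranes, had a log2 ratio of 0.39.

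Of 23 measured junction genes, 11 were higher in KO HE and 1 was lower, with a median log2 ratio of 0.98. Tjp1 (ZO-1), the tight junction scaffold, had 304 CPM in KO HE and 98.3 CPM in het EHT. Amotl1, an angiomotin, was 8.59-fold higher. Ctnnb1 and Ctnnd1, catenins that hold cadherins to the cell skeleton, had log2 ratios of 0.37 and -0.44, and Gja1, another connexin, had -0.21.

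Of 21 measured matrix genes, 10 were higher in KO HE and 2 were lower, with a median log2 ratio of 0.92. Sparcl1, a secreted matrix protein, had 507 CPM in KO HE and 7.28 CPM in het EHT, 69.7-fold higher, with reads in 34 of 37 and in 3 of 41 cells. Its lowest, median and highest KO HE cells were at 0, 365 and 1651 CPM, and the highest het EHT cell was at 264.3 CPM. The basement membrane genes Col4a1 and Nid1 were 3.08-fold and 3.85-fold higher, and Sparc 3.82-fold higher. Fn1 (fibronectin) was at 1980.05 CPM in KO HE and 1955 CPM in het EHT. Eln was read in 1 of 37 KO HE cells and in 10 of 41 het EHT cells, and had 45.2 CPM in het HE.

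**Figure D3:**
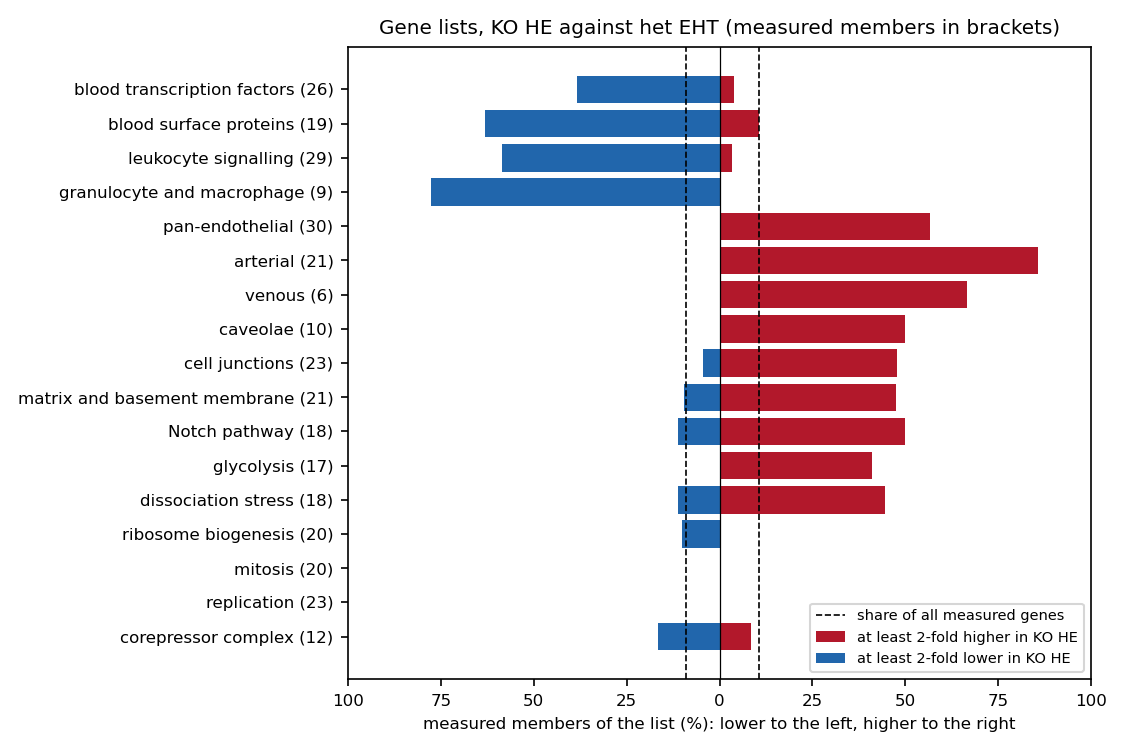
Share of the measured members of each gene list (number in brackets) that were at least 2-fold higher (red, right) or lower (blue, left) in KO HE than in het EHT, with dashed lines at the shares of all measured genes, 10.502% and 8.907%. The 4 lists of blood genes at the top extend to the left and the endothelial lists below them to the right, and the mitosis and replication lists have no member past 2-fold.

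Both kinds of gene were read in the same KO HE cells. After each cell was thinned to 100000 reads, KO HE cells had reads of 28 to 50 blood list genes (median 38), and het EHT cells of 30 to 62 (median 50). Of endothelial list genes, KO HE cells had reads of 69 to 93 (median 85), and het EHT cells of 30 to 89 (median 64). Cd34, which is in both kinds of list, was left out of these counts, as were members that were not measured. The lists were counted without thinning as well, with medians of 40 and 86 genes in KO HE and 52 and 68 in het EHT. The quartiles of endothelial genes per thinned cell were 81 and 87 in KO HE, against 51 and 70 in het EHT, and 28 of 41 het EHT cells had fewer of them than the lowest KO HE cell. At the other end, 1 of 37 KO HE cells reached the het EHT median of blood genes, and 3 of 41 het EHT cells reached the KO HE median of endothelial genes.

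**Figure D4:**
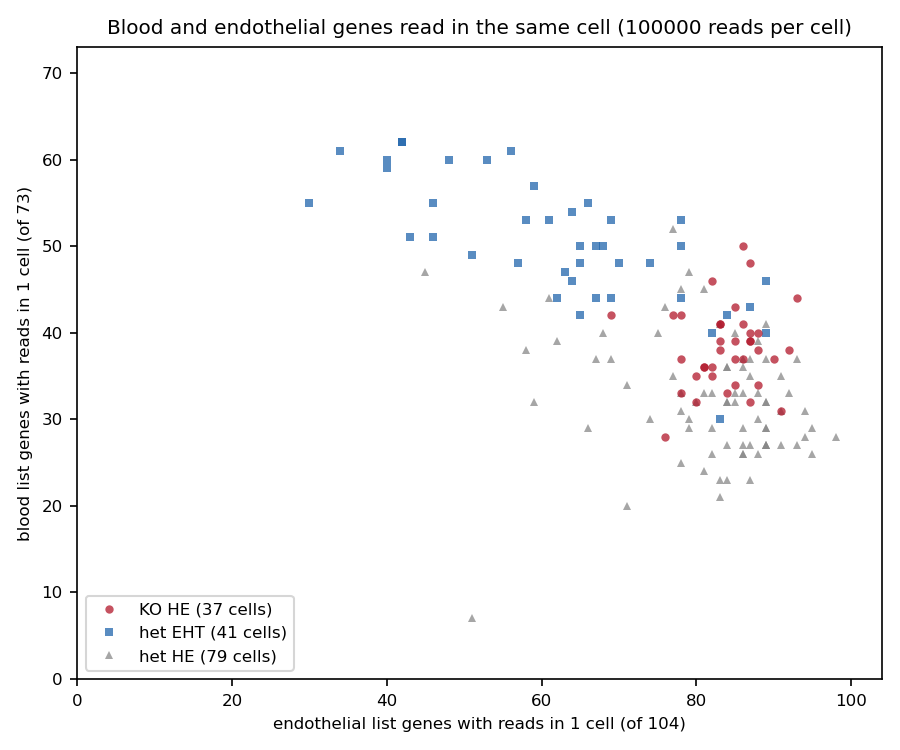
Number of blood list genes (vertical axis) and endothelial list genes (horizontal axis) with reads in each cell after thinning to 100000 reads, for KO HE (red circles, 37 cells), het EHT (blue squares, 41 cells) and het HE (grey triangles, 79 cells). KO HE cells gather between 69 and 93 endothelial genes, het EHT cells spread from 30 to 89 with more blood genes, and het HE cells reach down to 7 blood genes.

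Pairs of genes were counted as well, and such counts largely follow from how many cells had reads of each gene alone. Whether any pair was more frequent than that was not tested. Spi1 and Cav1 were both read in 15 of 37 KO HE cells (40.5%), in 0 of 41 het EHT cells and in 4 of 79 het HE cells. Runx1 and Cav1 were read together in 25 of 37 KO HE cells, 1 of 41 het EHT cells and 12 of 79 het HE cells. With Cav1 read in only 1 of 41 het EHT cells, its pairs could reach no more than 1 cell there. Het EHT cells did combine blood genes with other endothelial genes. Spi1 and Cldn5 were both read in 19 of 37 KO HE cells and in 20 of 41 het EHT cells, and Runx1 and Cldn5 in 31 of 37 and in 25 of 41. Spi1 and Myb, both blood factors, were read together in 7 of 37 KO HE cells and in 35 of 41 het EHT cells. Wells holding more than 1 cell were not looked for.

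The other heterozygous sorts place these levels. Of Runx1, KO HE had 106.2 CPM, het HE 80.97, het Endo 0 and het IAHC 183.9 CPM. Of Spi1, KO HE had 54.3 CPM, het HE 31.9, het Endo 0.0249 and het IAHC 313 CPM, and Spi1 was read in 51.4% of KO HE cells and 26.6% of het HE cells. For summed Myb and Ikzf1 the order was the other way, with 17.98 and 1.91 CPM in KO HE and 37.2 and 8.83 CPM in het HE. The share of cells with Myb reads did not follow that order in the pooled cells, at 11 of 37 in KO HE and 20 of 79 in het HE. Het HE pools cells from separate runs of cell numbers in the titles. Runx1, Spi1 and Myb were read in a larger share of cells in the first run, so the pooled het HE values depend on the mix. In the first run alone, the share of cells with Myb reads was above that of KO HE. The mean Runx1 level of its cells was above that of KO HE cells as well. The placing of KO HE against het HE by Runx1 level and by Myb share thus turns with the run. The cause was not tested. No count of genes was made between KO HE and het HE, het Endo or het IAHC, and their levels are given as a description. In blood list genes per thinned cell, the medians were 38 in KO HE, 32 in het HE, 19 in het Endo and 58 in het IAHC. In endothelial list genes they were 85 in KO HE, 84 in het HE, 74 in het Endo and 40 in het IAHC.

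**Figure D5:**
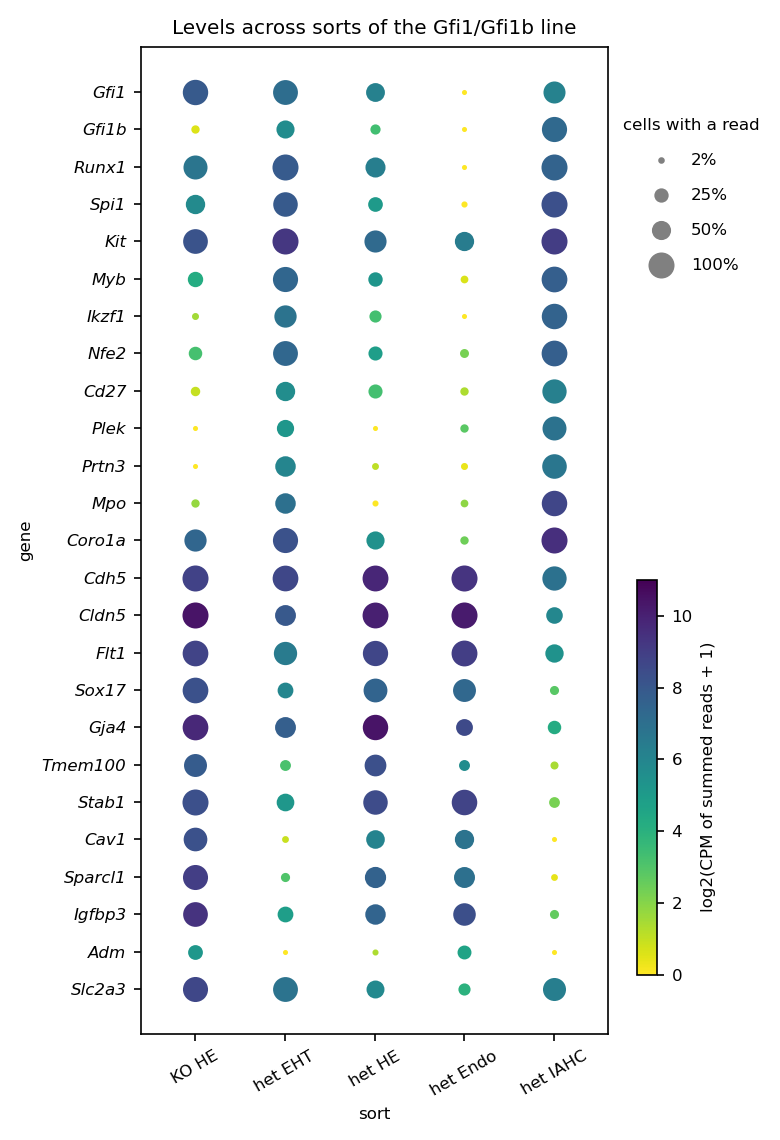
Level of 25 genes in KO HE, het EHT, het HE, het Endo and het IAHC, from left to right, with colour for log2(CPM + 1) of the summed reads and dot area for the share of cells with a read. Plek, Prtn3 and Mpo have small dots in KO HE and large ones in het IAHC, while Cldn5, Flt1 and Stab1 have large dots in KO HE and small ones in het IAHC.

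The corepressor partners of GFI1 and GFI1B were read at like levels. Of 12 measured members, 1 (8.33%) was higher in KO HE and 2 (16.7%) were lower, with a median log2 ratio of -0.03. Of all measured genes, 10.502% were higher and 8.907% were lower, so counts this small do not set the list apart. Kdm1a, the LSD1 demethylase, had 134.4 CPM in KO HE and 131.98 CPM in het EHT. Hdac1 and Hdac2, the deacetylases of the complex, had log2 ratios of 0.68 and 0.15. Rcor2 and Gse1 were lower, with 5.10 and 7.84 CPM in KO HE and 14.4 and 20.9 CPM in het EHT, and Phf21a was 2.10-fold higher, but under 2-fold after thinning and in the mean over cells.

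Against het EHT, none of 23 measured replication genes and none of 20 mitosis genes was past 2-fold, with median log2 ratios of 0.07 and -0.37. Against the heterozygous transition cells titled E11.5, described at the end, 8 of 23 replication genes and 2 of 20 mitosis genes were higher in KO HE and 0 were lower, with median log2 ratios of 0.78 and 0.50. Of all genes measured against those cells, 9.040% were higher and 16.148% were lower. Of 4 measured kinase inhibitors, Cdkn1a (p21) was lower, with 7.21 CPM in KO HE and 20.9 CPM in het EHT. Of 20 ribosome biogenesis genes, Polr1a and Wdr12 were lower in KO HE (Wdr12 under 2-fold with either other scaling), the median log2 ratio was -0.64, and Npm1 had -0.05. These 2 are 10% of the list, near the 8.907% of all measured genes that were lower against het EHT, so their count does not set the list apart. Against the cells titled E11.5, 1 of the 20 was higher and 0 were lower.

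Several glycolysis genes were higher in KO HE. Of 17 measured members, 7 were higher in KO HE and 0 were lower, beside 10.502% and 8.907% of all measured genes, with a median log2 ratio of 0.71. The glucose carriers Slc2a1 and Slc2a3 were 3.07-fold and 3.66-fold higher, with 858 and 403 CPM in KO HE and 279 and 110 CPM in het EHT. Slc2a3 was also above het HE (56.4 CPM). Slc16a3, which exports lactate, was 5.23-fold higher, and Pgk1, a glycolytic enzyme, 2.56-fold higher, with 575 CPM in KO HE and 224.6 CPM in het EHT. Ldha and Hk1 had log2 ratios of 0.21 and -0.11.

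Genes known to respond to cell dissociation differed between the sorts too. Of 18 measured, 8 (44.4%) were higher in KO HE and 2 (11.1%) were lower, with a median log2 ratio of 0.54. Of all measured genes, 10.502% were higher and 8.907% were lower, so the share of lower members was near that of all genes. Socs3, a brake on cytokine signalling, had 24.996 CPM in KO HE and 0 reads in het EHT, at least 171.6-fold higher, and Atf3 and Junb were 6.82-fold and 4.15-fold higher. The heat shock genes Hspa1a and Hspa1b were 8.67-fold and 7.66-fold lower in KO HE. The part of sample handling in the other differences was not tested.

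Among the 15 highest genes in KO HE by the fixed rule, Cav1, Sparcl1, Dab2, Tmem100 and Socs3 are in the lists above. Erbb2, a growth factor receptor, was read in 24 of 37 KO HE cells and had 0 reads in het EHT, against 55.1 CPM in KO HE. Adm (adrenomedullin, a vasodilator peptide) had 35.007 CPM in KO HE, with reads in 10 of 37 cells, 0 reads in het EHT and 1.53 CPM in het HE. Plat (tissue plasminogen activator), Fggy, Timp1 and Kdelr3 also had 0 reads in het EHT and 33.4 to 44.3 CPM in KO HE. Igfbp3, which binds insulin-like growth factors, was 23.8-fold higher, with 675 CPM in KO HE and 28.3 CPM in het EHT. Kank1 and Nrk complete the set with Tpm3-rs7, whose value is uncertain because its reads may be shared with the near-identical Tpm3.

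Among the 15 lowest, Prtn3, Ikzf1, Mpo, Plek, Sla, Gfi1b, Btk and Cd27 were described above. Ccl9, a chemokine, had 1 read in KO HE and 54.5 CPM in het EHT. Tuba4a, a tubulin, and Gpr171, a leukocyte receptor, had 0 reads in KO HE and 43.6 and 24.9 CPM in het EHT. Cd200r1 and Mctp1 were read in 2 and 5 of 37 KO HE cells, against 13 and 29 of 41 het EHT cells. Bmper, which binds BMPs, is an endothelial product, and it had 0 reads in KO HE, 21.95 CPM in het EHT and 35.8 CPM in het HE.

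Markers of other cell types were read in both groups. Summed levels were 0.383 CPM in KO HE and 2.62 CPM in het EHT for macrophage markers, with 5 of 6 at 0 in both. The mesenchyme markers summed to 22.5 CPM in KO HE and 17.97 CPM in het EHT, and the 1 measured among them, Prrx1, a mesenchymal homeobox factor, was 14.7-fold higher, with 12.9 CPM in KO HE and 0.874 CPM in het EHT and reads in 9 of 37 and in 2 of 41 cells. The longer mesenchyme list of 18 genes summed to 237.8 CPM in KO HE and 309 CPM in het EHT, with the highest cells at 3990 and 2758 CPM. Most of it was Acta2, a smooth muscle actin, at 179.9 CPM in KO HE and 266.7 CPM in het EHT. Sympathetic markers summed to 1.53 CPM in KO HE and 0.194 CPM in het EHT. The longer sympathetic and neural list of 11 genes summed to 97.2 CPM in KO HE and 93.4 CPM in het EHT, with the highest cells at 1098 and 1072 CPM, and most of it was Stmn2, a neuronal tubulin regulator, at 91.2 and 87.7 CPM. Erythroid markers summed to 20.1 CPM in KO HE and 40.7 CPM in het EHT, and to 7.21 and 17.7 CPM without the globins. These erythroid sums are a description only, since cells were left out by their globin reads. The part of other cell types in the differences between the groups was not tested. Epithelial markers summed to 68.1 CPM in KO HE and 99.8 CPM in het EHT, nearly all from Krt18.

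A further 42 het EHT cells bear E11.5 in the title and E10.5 in the stage field and stayed out of het EHT. Set against them instead, 9.040% of 10088 measured genes were higher in KO HE and 16.148% were lower. There 57 of 83 measured blood list members were lower in KO HE, 38 of them among the 39 above, and Runx1 was no longer past 2-fold. Of the measured endothelial members, 48 (44.04%) were higher, 44 of them among the 62 above, and 8 (7.34%) were lower. The lower ones were 4 of 24 arterial, 2 of 7 venous and 4 of 23 matrix genes, with some genes in more than 1 list. Cav1 had 14.1 CPM in these cells, and Procr, higher in KO HE than in het EHT, had a log2 ratio of -0.36. The share of higher genes among all called was 35.9% against these cells and 54.1% against het EHT.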

How the data were processed

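Single cells of mouse AGM were sorted into wells and their polyA RNA was sequenced by Smart-seq2, per the labels' protocols. The authors deposited raw counts of reads per gene and cell in 2 tables, which hold whole numbers with a different total in each cell, and 1 table was used. The submitters' processing notes name bcl2fastq, STAR 2.4.2a, HTSeq 0.6.1p1, R 3.6.2 and GRCm38. The annotation, the strand setting and the cell filter were not given in the sources used here. Reads of genes that overlap, antisense pairs included, therefore cannot be told apart. The copy used ends within a row, which left 36131 whole genes, and later identifiers were not analysed here. Gene positions are from the GENCODE annotation of GRCm38.

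Counts were summed over the kept cells of each sort and divided by total reads to give CPM. In a ratio, a sum under 3 reads was set to 3. A share of 0 allows up to 3 of the cells. With 1 sample in each group, edgeR's quasi-likelihood test could not be run. TMM factors of edgeR 4.0.16 and median-of-ratios factors of DESeq2 1.42.0 (R 4.3.3) were used only as other scalings. Sums and ratios were made in Python 3.11.15 with numpy 2.4.6, pandas 2.3.3 and scipy 1.17.1, and were tested on simulated data. No doublet caller was run. Thinning drew 100000 reads from each cell.

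The cells, the 24 gene lists and the rules were chosen with earlier results of these data known. Text names the gate, target and marker genes and the 15 highest and 15 lowest genes by log2(CPM + 1) ratio. The highest and lowest genes had at least 20 CPM and reads in at least 25% of cells of the higher group. Mitochondrial, ribosomal protein, pseudogene, X-inactivation, Y-linked and unnamed predicted genes were left out. Of each list it names up to 6 members with the largest ratio, 4 with the smallest and 3 with the highest level, and any blood transcription factor or pan-endothelial gene. Of the list symbols, 4 were matched by gene identifier and 1 was absent. RefSeq promoter windows (GRCm38.p6) were matched by symbol for Gfi1b and Cav1, and those for Spi1 and Sparcl1 were not used here. Alternatives changed the cell filter, depth, weighting, scaling, CPM minimum, fold and comparison cells. One gene that the rule names is not reported here.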

Additional observations from a re-analysis of the deposited data

How the results depend on the processing

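No paired analysis was possible because each sort was 1 sample and the labels give no replicate numbers. Of measured genes, 16.6% were higher and 17.7% lower in KO HE with no CPM minimum (2707 and 2880 genes), 7.86% and 4.74% with a minimum of 50 CPM, and 3.15% and 2.48% at 4-fold. Blood list members lower in KO HE numbered 16 at 50 CPM and 21 at 4-fold, and endothelial members higher numbered 20 at 4-fold. The other cell filters, thinning, per-cell means and both scalings kept these 4 counts within 1.5 times. TMM and median-of-ratios scaling gave 1124 and 1125 higher and 762 and 758 lower genes. Both put Kit, Ptprc, Ikzf2 and Wdr12 under 2-fold.

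With no cell left out, or with the read floor alone, the log2 ratios of Gfi1b and Csf2rb turned to 0.87 and 0.87, and 12 other named genes fell under 2-fold. Against the het EHT cells titled E11.5, 1629 genes (16.1%) were lower. There 6 named genes turned, with log2 ratios of 1.21 for Cdkn1a, -0.0026 for Hey2, 0.16 for Hspa1a, -0.055 for Notch3, -0.19 for Phf21a and -0.36 for Procr. The cause was not tested. With 37 and 41 cells, a gene read in no cell may still be read in up to 8.11% and 7.32% of cells.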

Other observations

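Cwc22, a splicing factor gene on chromosome 2 that was singled out after its values were seen and is in no list, was 17.9-fold lower in KO HE. It had 13.5 CPM in KO HE, with reads in 13 of 37 cells, and 242.02 CPM in het EHT, with reads in 39 of 41 cells. Het HE had 245.3 CPM, het Endo 195.8 CPM and het IAHC 162.5 CPM, and the het EHT cells titled E11.5 had 105.3 CPM.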
